A study of Homo sapiens with 12 samples.

Results

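The nuclear factor kappa B (NF-kB) pathway was followed in human myeloma cells through 33 listed genes, which are its subunits, inhibitors, kinases, adaptors, ubiquitin regulators and a set of target genes. A probe set was taken as a member where the array's annotation paired it with one of these symbols and no other, which gave 59 of the 54612 probe sets and 29 of the 19775 genes with a probe set of their own. Probe sets listed for BCL3 and CCL3 also named another gene, and BIRC3 and TRAF2 were not paired with a probe set, so these 4 genes were not analysed here. Of the 59 probe sets 50 passed the filter on low values, and all 29 genes kept at least 1, with CCL2 and CCL20 passing only through arrays of cocultured cells.

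Affymetrix U133 Plus 2.0 arrays, 12 in all, gave the transcript levels of the multiple myeloma lines MM.1S, MM.1R and INA-6, all stably expressing green fluorescent protein (GFP). MM.1R is a dexamethasone-resistant line that descends from MM.1S, and INA-6 is a line that depends on interleukin 6. Each line was kept for 24 h either alone or with HS-5, an unlabelled human bone marrow stromal cell line, and GFP-positive cells were then collected by cell sorting. Each of the 6 groups (MM.1S, MM.1R and INA-6, alone or after coculture) had 2 arrays, described as technical replicates. The comparisons ask what contact with stromal cells changed in each line, and the p-values within a line measure only the spread between duplicate arrays. The model is limited to established lines and to 1 stromal line, and the sorted HS-5 cells were not analysed here.

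NF-kB proteins are dimers of REL, RELA, RELB and the products of NFKB1 and NFKB2, and in resting cells inhibitors of the I-kappa-B family hold them in the cytoplasm. In the canonical pathway a kinase complex containing the products of CHUK and IKBKB marks these inhibitors for destruction, while in the alternative pathway the kinase NIK, encoded by MAP3K14, drives processing of the NFKB2 precursor. Many inhibitors of the pathway are themselves targets of it, and in multiple myeloma the pathway is known to be activated both by mutations of its regulators, such as TRAF3 and CYLD, and by signals from the bone marrow stroma.

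Members of the list differ in whether the sequence before their start site holds a match to the kappa B consensus, the 10-base motif that NF-kB dimers bind. RefSeq promoter sequences (GRCh38.p14) were at hand for 26 of the 33 genes, and 11 of these (42.3%) held a match on either strand within the 250 bases before the start, against 2612 of 27305 promoters of all genes (9.57%). The genes with a match were NFKB1, REL, NFKBIA, NFKBIZ, TNFAIP3, BIRC3, TRAF3, CYLD, CCL20, LTB and EBI3, and in REL both matches overlapped. No entry was given for IER3, RELB, CCL2, CCL4, CD40, IKBKB and NFKBIE. The 6 windows below were chosen because the genes they precede behaved differently: CCL20 and NFKBIZ were higher after coculture in each line, TNFAIP3 and TRAF3 passed the test in INA-6 and not in the other lines on the full set of arrays, NFKB1 was lower in INA-6, and NFKBIA passed in no line on that set. Capitals mark the kappa B matches, each window is written 5′ to 3′ on the gene's strand, and a match is a description of the letters, not of binding.
CCL20, chr2:227813733-227813802, plus strand: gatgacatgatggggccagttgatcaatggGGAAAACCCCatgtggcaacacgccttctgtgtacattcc
NFKBIZ, chr3:101827740-101827806, plus strand: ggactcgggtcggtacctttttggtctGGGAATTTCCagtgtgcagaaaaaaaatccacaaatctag
TNFAIP3, chr6:137867162-137867243, plus strand: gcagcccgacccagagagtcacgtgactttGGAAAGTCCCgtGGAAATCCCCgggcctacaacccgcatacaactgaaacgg
TRAF3, chr14:102777386-102777448, plus strand: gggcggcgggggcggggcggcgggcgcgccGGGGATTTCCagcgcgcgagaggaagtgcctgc
NFKB1, chr4:102501280-102501349, plus strand: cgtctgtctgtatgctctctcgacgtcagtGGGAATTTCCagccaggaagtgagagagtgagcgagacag
NFKBIA, chr14:35404791-35404860, minus strand: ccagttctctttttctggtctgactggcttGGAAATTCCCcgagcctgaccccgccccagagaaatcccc
The TNFAIP3 window holds 2 matches, which begin 67 and 55 bases before the start site. The single matches begin 79 bases before it in CCL20, 223 in NFKBIZ, 33 in TRAF3, 49 in NFKB1 and 81 in NFKBIA.

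Values are deposited intensities of a probe set on a linear scale, and each array's median lay between 19.78 and 24.09. The brightest tested probe set on average stands for a gene, and differences are given as log2(value + 5), which understates changes of low values. Duplicate arrays correlated between 0.946 and 0.986 over probe sets, except the INA-6 arrays of cells alone, at 0.839. Myeloma identity was carried by 13 plasma cell markers, of which 11 to 13 lay above the array's median in cells alone and 13 of 13 on every coculture array. Of 36 markers of stromal cells 35 were measured, and their summed intensity was 2078 to 5527 on arrays of cells alone and 23751 to 47668 on arrays of cocultured cells. Between 16 and 22 of these stromal markers lay above the median in cells alone and between 27 and 31 after coculture, while LUM and POSTN stayed below it on every array. The 3′ to 5′ ratio of ACTB went from a mean of 22.4 to 5.10 in MM.1S and from 31.4 to 5.21 in MM.1R and went from 5.51 to 32.0 in INA-6, and the BioB spike-in was lower after coculture in each line (1984 against 374, 594 against 422 and 3734 against 834). Their part in the results below was not tested. In sorted cells, transcripts of remaining stromal cells and transcripts made by the myeloma cells cannot be told apart.

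Across the lines, 2 of the 29 members passed the test of a common effect of coculture, the chemokine gene CCL20 and the early-response gene IER3, and both were higher. CCL20 had passed the filter on low values only through cocultured arrays, so its call is a description. Among all genes 1.48% were higher and 0.00664% lower in this fit, in which duplicates were averaged and the line was a block (limma, Benjamini-Hochberg adjusted p under 0.05). The median log2 difference of the members was 0.52, against 0.27 over all 15052 genes. At an unadjusted p under 0.05 there were 7 members, a count that cannot be judged because the share of all genes at that threshold was not computed. Within each line limma's test on 12 arrays called 5 members higher in MM.1S, MM.1R and INA-6 alike: IER3, CCL20, NFKBIZ, RELA and CHUK, against 6.6% of all genes. A partly different set of 5 was at least 2-fold higher in every line, with TNIP1 in place of CHUK, against 6.47% of all genes. No member was called lower in each line, against 0.625% of all genes. After quantile normalization, which moved the median of all genes from 0.27 to 0.02, the sets called higher and at least 2-fold higher in each line held 3 members each. The difference was positive in all 3 lines for 14 of the 29 members and negative in all 3 for 0, against 34.3% and 17.4% of all genes. By the probe set that represents them, 5 members (NFKBIA, NFKBIB, REL, MAP3K14 and PLEK) passed the test in no line, as did 37.5% of all genes.

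CCL20 encodes a chemokine that attracts cells carrying CCR6, and it had the largest difference among the members. Its intensity was 15.9 and 9.44 in MM.1S alone and 862 and 835 after coculture. In MM.1R it went from 6.62 and 10.1 to 2041 and 2109.9, and in INA-6 from 30.8 and 8.56 to 673 and 689. In every line both cocultured arrays stood above both arrays of cells alone, and of the arrays of cells alone 1 lay above its own median. The common log2 difference was 5.96 ± 0.53 (SE; limma adjusted p = 0.00944), and since cells alone gave values around or below the array median its size depends on the 5 added before taking the logarithm. By line it was 5.62 in MM.1S, 7.29 in MM.1R and 4.96 in INA-6, each ± 0.41 (limma adjusted p = 7.58e-05, 2.56e-05 and 4.80e-05).

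IER3 encodes an early-response protein that modulates cell survival. It was at 48.2 and 47.7 in MM.1S alone and at 1703 and 1742 after coculture. In MM.1R the values were 42.5 and 48.3 against 3968 and 3735, and in INA-6 57.1 and 130.0 against 2005 and 1970.5. Both groups were well apart in each line, and the highest level was again in cocultured MM.1R. The common difference was 5.24 ± 0.47 (SE; limma adjusted p = 0.00959), a 37.9-fold change. Like CCL20 and IER3, the stromal marker sum was highest in cocultured MM.1R (47668 and 46966, against 23751 to 26294 on the other cocultured arrays). Between the other 2 lines after coculture, IER3 had the higher mean in INA-6 (1988, against 1722 in MM.1S). CCL20 had the higher mean in MM.1S (849, against 681 in INA-6). The sum was higher in MM.1S (26294 and 25860, against 23972 and 23751 in INA-6). The part of stromal transcripts in the rise of CCL20 or IER3 was not tested.

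**Figure D1:**
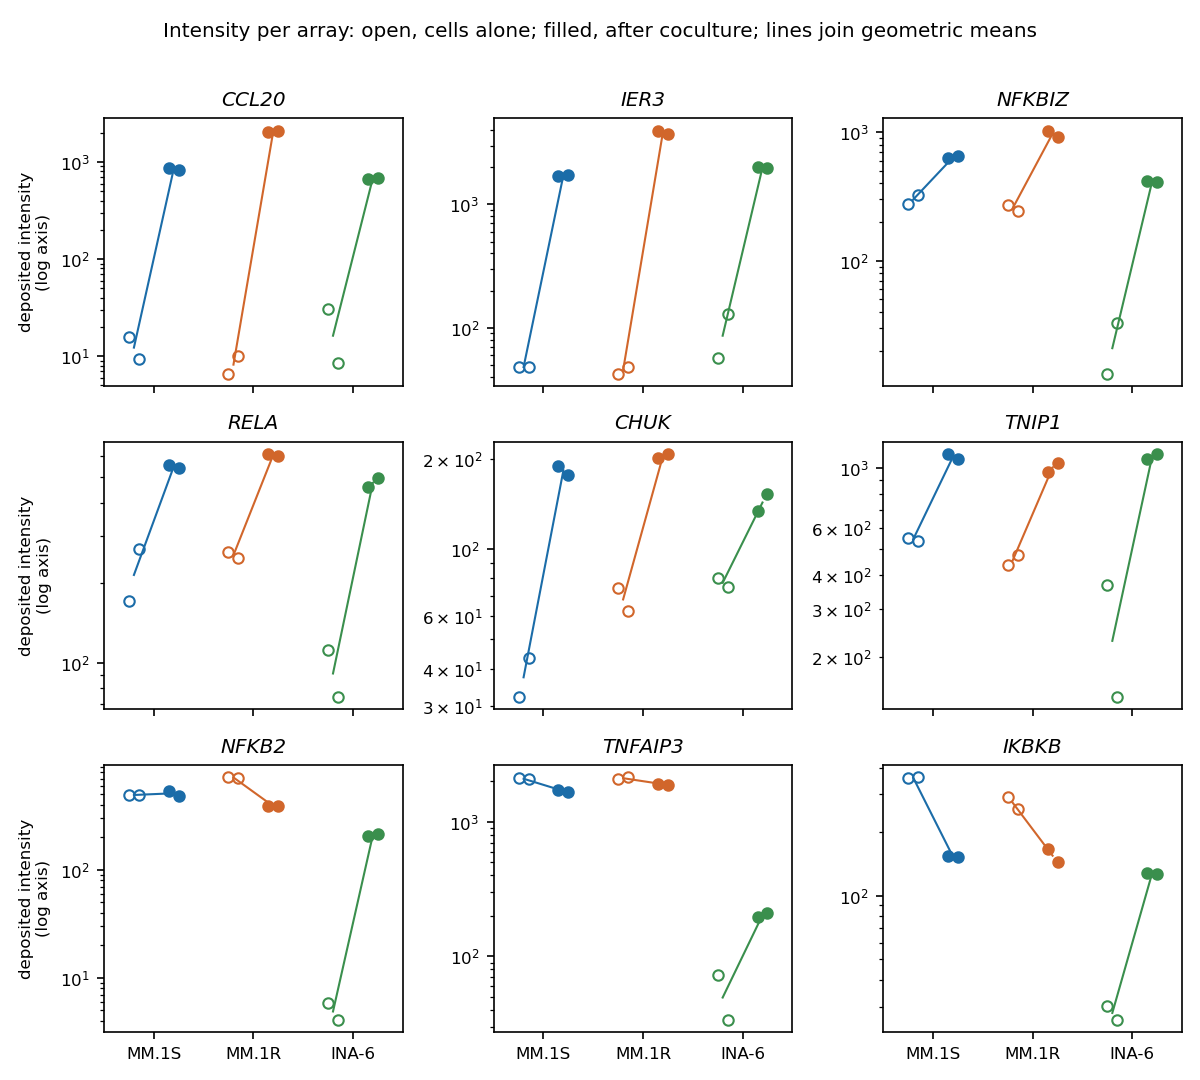
Deposited intensity on a log axis for 9 members on each of the 12 arrays, with open circles for cells alone, filled circles for cocultured cells and lines that join geometric means. CCL20 and IER3 were higher after coculture on every array of each line, while NFKB2, TNFAIP3 and IKBKB had their lowest values in INA-6 cells alone.

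The subunits did not move as a group. RELA, which encodes the p65 subunit with a transactivation domain, was at 171 and 268 in MM.1S alone and at 554 and 540.4 after coculture. It went from 261 and 247 to 611 and 602 in MM.1R and from 112 and 74.3 to 457 and 494 in INA-6, so that the groups did not overlap in any line. The log2 differences were 1.33 ± 0.26 in MM.1S, 1.24 ± 0.26 in MM.1R and 2.32 ± 0.26 in INA-6 (limma adjusted p = 0.00592, 0.0163 and 0.000211), and the common difference of 1.63 ± 0.42 did not pass the test (limma adjusted p = 0.121). The MM.1R call was lost without any 1 of the 4 MM.1R arrays, at a limma adjusted p of 0.0796 to 0.104. A dimmer RELA probe set gave 0.90, -0.23 and -0.06 in the same lines and passed the test in none.

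NFKB1 and NFKB2, which encode the p105 and p100 precursors of p50 and p52, moved in opposite directions in INA-6. NFKB1 was at 226 and 405 in INA-6 alone and at 34.3 and 30.6 after coculture, a difference of -3.04 ± 0.45 (SE; limma adjusted p = 0.000811). In MM.1S it was at 15.8 and 47.2 against 66.8 and 80.0 and in MM.1R at 26.3 and 29.1 against 105 and 69.9, with the cocultured arrays above the others and neither difference past the test (1.25 and 1.48; limma adjusted p = 0.0695 and 0.065). Without the INA-6 arrays the mean NFKB1 difference of MM.1S and MM.1R was 1.36 (limma adjusted p = 0.00905). NFKB2 stood at 5.88 and 4.04 in INA-6 alone, below the array median, and at 204 and 214 after coculture, a difference of 4.43 ± 0.17 (SE; limma adjusted p = 6.19e-06). In MM.1R it fell from 721 and 714 to 387 and 390.2 (-0.88 ± 0.17; limma adjusted p = 0.0125), and in MM.1S it was at 490.0 and 498 against 541 and 485, with overlapping groups. The MM.1R call was lost without any 1 of the 4 MM.1R arrays (limma adjusted p of 0.0788 to 0.0881). The second NFKB2 probe set read 52.4 and 150 in INA-6 alone and 133 and 138 after coculture, where the groups overlapped, and its difference of 0.58 did not pass the test (limma adjusted p = 0.378). In MM.1R this probe set gave 0.44 (limma adjusted p = 0.69), and with the mean of the gene's probe sets the MM.1R value was -0.22 (limma adjusted p = 0.697).

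RELB, the partner of p52 in the alternative pathway, was called in INA-6, where it went from 16.4 and 29.2 to 53.5 and 75.1 (1.34 ± 0.27; limma adjusted p = 0.00432). Its differences of 0.53 in MM.1S and 0.52 in MM.1R did not pass the test. REL, the subunit most prominent in lymphoid cells, had values between 47.5 and 137 on the 12 arrays by its brightest probe set, which passed the test in no line. Without either array of MM.1S alone this probe set was called in INA-6 (-0.75; limma adjusted p = 0.0395). Of the dimmer REL probe sets, one was called lower in INA-6 (-0.86 ± 0.28; limma adjusted p = 0.0365) and another higher (1.18 ± 0.39; limma adjusted p = 0.0356). The probe set called higher lay above the array median on 1 array of cells alone and 3 cocultured arrays. In INA-6 it was below the median on every array, so its rise there is a description of low values. By these calls the direction of REL in INA-6 was not settled.

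Among the inhibitors, NFKBIZ was called higher in each line, and the calls of NFKBIA depended on the INA-6 arrays of cells alone. NFKBIZ encodes an atypical nuclear I-kappa-B protein that acts on secondary targets such as IL6. It was at 278 and 323 in MM.1S alone and 627 and 649 after coculture, at 269 and 244 against 1029.7 and 922 in MM.1R, and at 13.2 and 32.9 against 416 and 410.5 in INA-6. The differences were 1.08, 1.90 and 3.99, each ± 0.31 (SE; limma adjusted p = 0.0322, 0.00528 and 3.63e-05), and the second probe set gave 1.23, 1.95 and 3.71. The MM.1S call was lost in 13 of 22 alternative settings, where its adjusted p went up to 0.141, among them the removal of any 1 array of MM.1S, MM.1R or cocultured INA-6.

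NFKBIA encodes I-kappa-B alpha, the inhibitor that NF-kB itself induces to end a response. Its cocultured values were above those of cells alone in every line, at 453 and 471 against 597 and 571 in MM.1S, 585 and 547 against 987 and 894 in MM.1R, and 576 and 313 against 661 and 635 in INA-6. The differences of 0.33, 0.73 and 0.60 (each ± 0.27, SE) did not pass the test. Without replicate 1 of the INA-6 cells alone the INA-6 value was 1.04 (limma adjusted p = 0.0004), and without replicate 2 it was 0.17. Without either of these arrays the unchanged values of MM.1S and MM.1R passed, through the shared estimate of spread (limma adjusted p = 0.0361 and 0.00252). NFKBIE, which encodes I-kappa-B epsilon, was at 13.8 and 12.9 in INA-6 alone and at 73.2 and 91.7 after coculture (2.25 ± 0.22; limma adjusted p = 0.000105). In MM.1S and MM.1R its differences were 0.40 and 0.37 and did not pass. NFKBIB, for I-kappa-B beta, ranged from 19.2 to 81.5 over the arrays and passed the test in no line, but without replicate 1 of the INA-6 cells alone its INA-6 value was 1.28 (limma adjusted p = 0.0474), and without either of these arrays its MM.1S value of 1.18 passed (limma adjusted p = 0.0402).

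Of the kinases, CHUK was higher in each line while IKBKB moved in opposite directions. CHUK encodes IKK alpha, which serves both branches of the pathway. Its intensity was 32.2 and 43.5 in MM.1S alone and 189 and 177 after coculture, 74.4 and 62.0 against 201 and 207 in MM.1R, and 79.9 and 74.5 against 134 and 153 in INA-6. The differences were 2.15, 1.52 and 0.85, each ± 0.20 (SE; limma adjusted p = 0.000175, 0.00195 and 0.00865), and after quantile normalization the INA-6 value was 0.12 (limma adjusted p = 0.664). Without replicate 2 of the cocultured INA-6 cells it was 0.75 (limma adjusted p = 0.0664).

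IKBKB encodes IKK beta, the main kinase of the canonical branch. It fell from 356 and 360.1 to 153 and 151 in MM.1S (-1.21 ± 0.18; limma adjusted p = 0.00139) and from 292 and 255 to 166 and 143 in MM.1R (-0.81 ± 0.18; limma adjusted p = 0.019). In INA-6 it rose from 30.3 and 25.9 to 128 and 126 (2.001 ± 0.18; limma adjusted p = 6.30e-05). The MM.1R call was lost without any 1 of the 4 MM.1R arrays (limma adjusted p of 0.072 to 0.138). With the mean of the gene's probe sets the MM.1R difference was -0.52 and did not pass (limma adjusted p = 0.255). After coculture the 3 lines lay between 126 and 166, whereas alone they lay between 25.9 and 360.1.

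IKBKE encodes a kinase related to the IKK enzymes that also acts in interferon responses. It fell from 562 and 512 to 186 and 180.2 in MM.1S and from 433 and 406 to 169 and 172 in MM.1R (-1.53 and -1.27, each ± 0.21; limma adjusted p = 0.0011 and 0.00579), and was at 62.3 and 42.5 against 61.2 and 74.3 in INA-6, where it passed without replicate 1 of the cells alone (0.61; limma adjusted p = 0.0111). The MM.1R call was lost without replicate 1 of the cocultured MM.1R cells (-1.26; limma adjusted p = 0.0503). Its other probe set went the other way in MM.1S, from 45.4 and 55.4 to 115 and 89.3 (0.95 ± 0.22; limma adjusted p = 0.0131), so the direction of IKBKE in MM.1S depended on the probe set. MAP3K14 was at 129.7 to 160.1 in MM.1S and MM.1R alone and at 128 to 138 after coculture, with overlapping groups in MM.1R, and passed the test in no line. Without replicate 2 of the INA-6 cells alone it passed in INA-6 (1.12; limma adjusted p = 0.000652).

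The 3 adaptors and ubiquitin ligases measured passed the test in INA-6, where 38.2% of all genes were called higher, and not in the other lines, although the difference between lines was past the test only for TRAF3. TRAF3, the adaptor that directs NIK to degradation, was at 79.7 and 54.1 in INA-6 alone and at 288 and 266 after coculture (1.99 ± 0.21; limma adjusted p = 0.00014). In MM.1S it was at 213 and 222 against 352 and 324 (0.62; limma adjusted p = 0.0547) and in MM.1R at 325 and 306 against 329 and 339 (0.08). Without either INA-6 array of cells alone the MM.1S value of TRAF3 passed (limma adjusted p = 0.00271), as did that of TRAF1 in MM.1R (0.88; limma adjusted p = 0.0374). The second TRAF3 probe set had overlapping groups in INA-6 (87.8 and 94.0 against 84.0 and 96.9). TRAF1, an NF-kB-induced adaptor, went from 21.5 and 40.2 to 61.2 and 75.9 in INA-6 (1.08 ± 0.32; limma adjusted p = 0.0244). BIRC2, the ubiquitin ligase cIAP1, went from 878 and 795 to 1285 and 1291 (0.62 ± 0.19; limma adjusted p = 0.027), and in MM.1S and MM.1R its cocultured arrays were also the higher ones without passing the test (0.35 and 0.46). The INA-6 call of BIRC2 was lost without either cocultured INA-6 array (limma adjusted p = 0.103 and 0.111), and that of TRAF1 without either of these (0.0587 and 0.13) or without replicate 1 of the cells alone (0.70; limma adjusted p = 0.0885).

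Of the ubiquitin-editing regulators, which act as brakes on the pathway, all 3 were called higher in INA-6 by their brightest probe sets, as were 38.2% of all genes, and none of these probe sets passed in MM.1S or MM.1R. TNFAIP3, which encodes A20, was at 2069 to 2142 in MM.1S and MM.1R alone and at 1658 to 1919 after coculture, with differences of -0.30 and -0.15 that did not pass. In INA-6 it was at 73.0 and 33.5 alone and at 195 and 211 after coculture (1.92 ± 0.30; limma adjusted p = 0.00107), which left it far below the other lines. The second TNFAIP3 probe set had the opposite sign in MM.1S (0.19) and MM.1R (0.12) and gave 2.20 in INA-6. CYLD, a deubiquitinase, went from 152 and 80.2 to 379 and 339.9 in INA-6 (1.65 ± 0.28; limma adjusted p = 0.00164) and was at 779.8 to 889.8 alone against 595 to 658 after coculture in MM.1S and MM.1R (-0.41 in both, not past the test). Of the other 3 tested CYLD probe sets, 2 rose in MM.1S (1.26 ± 0.22 and 1.16 ± 0.30; limma adjusted p = 0.00353 and 0.0214), so the direction of CYLD in MM.1S depended on the probe set, while in INA-6 the other 3 gave 1.46 to 3.43. TNIP1, a partner of A20, had cocultured values of 970.3 to 1128 in all lines against 142 to 551 in cells alone. Its differences were 1.01, 1.13 and 2.24 (each ± 0.37, SE), and the INA-6 difference passed the test (limma adjusted p = 0.00149) while the others did not (0.0759 and 0.0846). The difference between INA-6 and the other lines was 1.17 ± 0.45 and did not pass (limma adjusted p = 0.0766). A dimmer TNIP1 probe set gave -0.53 in MM.1S, 0.32 in MM.1R and 0.35 in INA-6, so the size of the TNIP1 differences depended on the probe set. Without either INA-6 array of cells alone TNIP1 was called higher in MM.1S and MM.1R as well (limma adjusted p = 0.000268 and 0.000421), and the brightest probe set of CYLD was called lower in both (0.0306 and 0.0436), as was TNFAIP3 in MM.1S (0.0393).

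The chemokine targets other than CCL20 followed the line. CCL2, the monocyte chemoattractant, was at 4.72 to 11.7 in MM.1S and MM.1R alone, all below the array median. After coculture it was at 43.5 and 44.6 in MM.1S and at 165 and 161 in MM.1R (1.83 and 3.94, each ± 0.36; limma adjusted p = 0.00602 and 0.000332). CCL2 passed the filter only through these cocultured arrays, so its differences are a description and their size depends on the 5 added. In INA-6 it was at 8.35 and 17.5 alone and 6.79 and 16.6 after coculture, all below the median, and the difference of -0.12 did not pass the test. CCL4, an inflammatory chemokine, was at 215 to 289 on all arrays of MM.1S and MM.1R and went from 26.0 and 17.3 to 37.4 and 43.5 in INA-6 (0.78 ± 0.21; limma adjusted p = 0.0147). That call was lost without replicate 2 of the cocultured INA-6 cells (0.69; limma adjusted p = 0.0966).

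The remaining targets gave few calls. LTB, a subunit of lymphotoxin, rose in MM.1S from 60.5 and 41.2 to 171 and 155 (1.61 ± 0.33; limma adjusted p = 0.00731), which brought it to the level of MM.1R, where it was at 169 and 152 alone and 144 and 150.1 after coculture. In INA-6 it was called lower without replicate 1 of the cells alone (-1.14; limma adjusted p = 0.00545). TNFAIP2, a gene induced by tumour necrosis factor, rose in MM.1R from 7.77 and 11.7 to 55.1 and 51.4 (1.995 ± 0.36; limma adjusted p = 0.0087), while in MM.1S and INA-6 its groups overlapped. Its second probe set was called lower in MM.1S (-1.24; limma adjusted p = 0.0276) and gave -0.65 in MM.1R and -0.83 in INA-6. That probe set passed the filter on low values only through arrays of cells alone, so its falls are a description. With the mean of both probe sets the MM.1R value of TNFAIP2 was 0.67 (limma adjusted p = 0.157). EBI3, a subunit of the cytokines IL27 and IL35, went from 2.63 and 13.7 to 24.3 and 39.1 in INA-6 (1.59 ± 0.49; limma adjusted p = 0.0268), and CD83, an activation marker, from 76.5 and 185 to 63.4 and 41.4 (-1.14 ± 0.40; limma adjusted p = 0.0448). Several of these calls were lost without 1 array. EBI3 lost its call without replicate 1 of the INA-6 cells alone (0.94; limma adjusted p = 0.121) or replicate 2 of the cocultured cells (1.29; limma adjusted p = 0.148), and CD83 lost it in 11 of the 12 removals of 1 array, with values of -1.42 to -0.53. LTB lost its MM.1S call without replicate 1 of the cocultured MM.1S cells (limma adjusted p = 0.0539), and TNFAIP2 its MM.1R call in 3 removals of an MM.1R array (limma adjusted p of 0.0531 to 0.0673). PLEK, which encodes the cytoskeletal protein pleckstrin, had a level set by the line, at 399 to 562 in MM.1S and MM.1R and 9.79 to 22.5 in INA-6, and passed the test in no line.

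CD40, the receptor that activates both branches, was read differently by its 4 tested probe sets. The brightest was at 603 and 517 in MM.1S alone and 305 and 289.7 after coculture (-0.90 ± 0.26; limma adjusted p = 0.0347), a call lost without any 1 of the MM.1S arrays or the cocultured INA-6 arrays (limma adjusted p of 0.0599 to 0.157). The other 3 rose in MM.1S by 2.29 to 3.06 and in MM.1R by 1.81 to 2.95, and all 6 of these differences passed the test. For one of them, for example, the values were 16.1 and 11.4 against 104 and 102 in MM.1S, 14.6 and 15.7 against 156 and 145 in MM.1R, and 11.7 and 5.46 against 12.3 and 12.8 in INA-6. That probe set passed the filter on low values only through cocultured arrays, so its rises are a description. With the mean of its probe sets, this one among them, CD40 was at 1.75 in MM.1S and 1.66 in MM.1R (limma adjusted p = 0.000119 and 0.000252). The direction of the CD40 transcript was therefore not settled. Of the 14 members with several tested probe sets, 11 had a probe set of the opposite sign in at least 1 line, and 3 had probe sets called in opposite directions in a line, IKBKE and CD40 in MM.1S and REL in INA-6. The REL probe set called higher was below the array median on every INA-6 array.

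**Figure D2:**
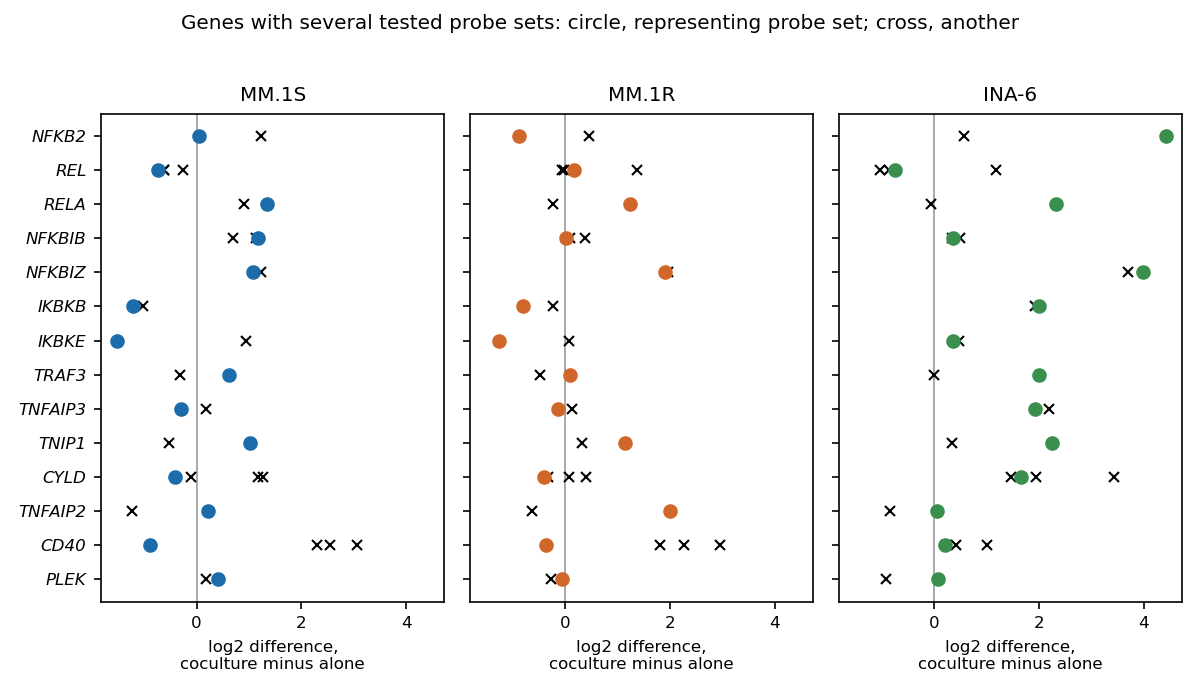
Log2 difference between cocultured cells and cells alone for the 14 members with several tested probe sets, with circles for the representing probe set and crosses for the others. NFKBIZ probe sets lie close together in each line, whereas the crosses of CD40 lie at 1.81 to 3.06 in MM.1S and MM.1R with the circle below 0.

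By line, the counts of called members stood beside those of all genes as follows. In MM.1S 7 members were called higher (24.1%) and 3 lower, where 22.8% and 7.69% of all genes were called, so the share of rising members was near that of all genes. In MM.1R 7 were called higher (24.1%) and 3 lower, against 12% and 2.13%. In INA-6 17 were called higher (58.6%) and 2 lower, against 38.2% and 12.5%. The members called higher include CCL2 and CCL20 in MM.1S and MM.1R and CCL20 in INA-6. Both genes passed the filter on low values only through cocultured arrays, so their part in these counts is a description. The member medians were 0.40, 0.24 and 0.85, against 0.11, 0.09 and 0.47 over all genes. The INA-6 counts were 18 higher and 3 lower without replicate 1 of the cells alone and 18 higher and 1 lower without replicate 2. The other lines' counts depended on the same arrays through the shared estimate of spread. Without any INA-6 array MM.1S had 11 higher and 4 lower and MM.1R 9 and 3. Calls over all tested probe sets went up as well in that setting, from 10465 to 15662 in MM.1S and from 4978 to 9947 in MM.1R. In MM.1R, leaving out replicate 1 of the cells alone left 6 members called, and leaving out replicate 1 or 2 of the cocultured cells left 5 or 6.

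**Figure D3:**
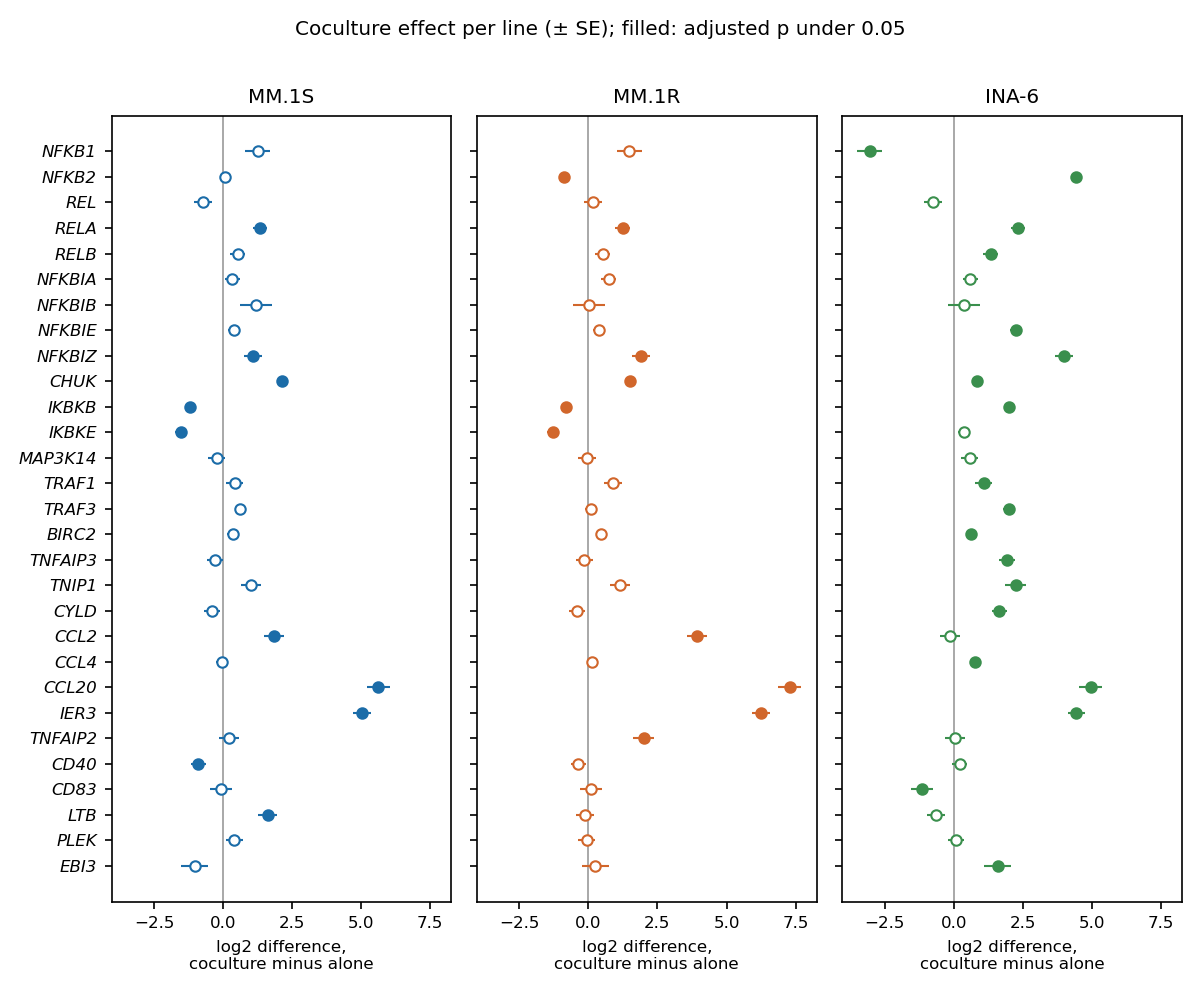
Log2 difference ± SE between cocultured cells and cells alone for the 29 members in each line, filled where limma's adjusted p is under 0.05. INA-6 has 19 filled points, against 10 in MM.1S and 10 in MM.1R, and the points of NFKB1, NFKB2 and IKBKB lie on opposite sides of 0 in INA-6 and in MM.1R.

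The difference of effect between INA-6 and the average of MM.1S and MM.1R was itself past the test for 16 members, 10 in the positive direction (34.5%) and 6 in the negative, against 24.1% and 13.4% of all genes. The positive ones were led by NFKB2 (4.85 ± 0.21), IKBKB (3.01 ± 0.22), NFKBIZ (2.50 ± 0.38), TNFAIP3 (2.15 ± 0.36) and CYLD (2.06 ± 0.34), on the log2 scale with SE. The second NFKB2 probe set gave -0.26 (limma adjusted p = 0.777), so the place of NFKB2 rested on its brightest probe set. The members with a negative difference were NFKB1 (-4.40 ± 0.55), CCL2 (-3.01 ± 0.44), CCL20 (-1.50 ± 0.51), LTB (-1.39 ± 0.41), IER3 (-1.20 ± 0.39) and CHUK (-0.98 ± 0.25). CCL2 and CCL20 passed the filter on low values only through cocultured arrays, so their differences are a description. Without replicate 1 of the cocultured INA-6 cells 10 members passed. Between MM.1R and MM.1S 0 members passed the test of a difference of effect, against 0.352% of all genes. At an unadjusted p under 0.05 there were 6, and the share of all genes at that threshold was not computed. Without any INA-6 array 6 members passed the test of a difference of effect at the adjusted p, and calls over all tested probe sets went from 142 to 3265. The 2 genes called in opposite directions in different lines were IKBKB and NFKB2, against 4.10% of all genes. With the mean of the gene's probe sets the MM.1R calls of both were lost. The MM.1R values were then -0.52 for IKBKB and -0.22 for NFKB2 (limma adjusted p = 0.255 and 0.697).

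Before coculture the lines already differed in the members' levels. In cells alone INA-6 was lower than the average of MM.1S and MM.1R in 17 members (58.6%) and higher in 3, against 33.5% and 20.7% of all genes, with a median of -1.31 against -0.14. NFKB2 (-5.92 ± 0.15), TNFAIP3 (-5.26 ± 0.26), PLEK (-4.56 ± 0.26), NFKBIZ (-3.42 ± 0.27), IKBKB (-3.27 ± 0.15), CCL4 (-3.22 ± 0.18) and IKBKE (-3.08 ± 0.18) had the largest negative differences, and the limma adjusted p of each was 1.82e-05 or less. The second NFKB2 probe set gave -0.54 and did not pass (limma adjusted p = 0.33). In cells alone the second PLEK probe set had a mean of 40.5 in INA-6, against 90.4 in MM.1S and 119 in MM.1R. For the second IKBKE probe set it was 27.5, against 50.4 and 80.9. Both were lower in INA-6 as well, but the sizes given for PLEK and IKBKE depended on the probe set. NFKB1 (3.23 ± 0.39), IER3 (0.83 ± 0.28) and CHUK (0.56 ± 0.17) were the members higher in INA-6. Without replicate 1 or replicate 2 of the INA-6 cells alone the counts were 16 or 17 lower and 4 higher. The same INA-6 arrays of cells alone enter this comparison and the INA-6 effect, so the values of both for a gene such as NFKB2 are not independent. Between MM.1R and MM.1S alone only LTB passed the test (1.59 ± 0.33, higher in MM.1R; limma adjusted p = 0.0274), against 6.3% of all genes called higher and 1.14% lower. After removal of any 1 array of MM.1S, MM.1R or cocultured INA-6, or after quantile normalization, 0 members passed that test, and without any INA-6 array 5 did.

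**Figure D4:**
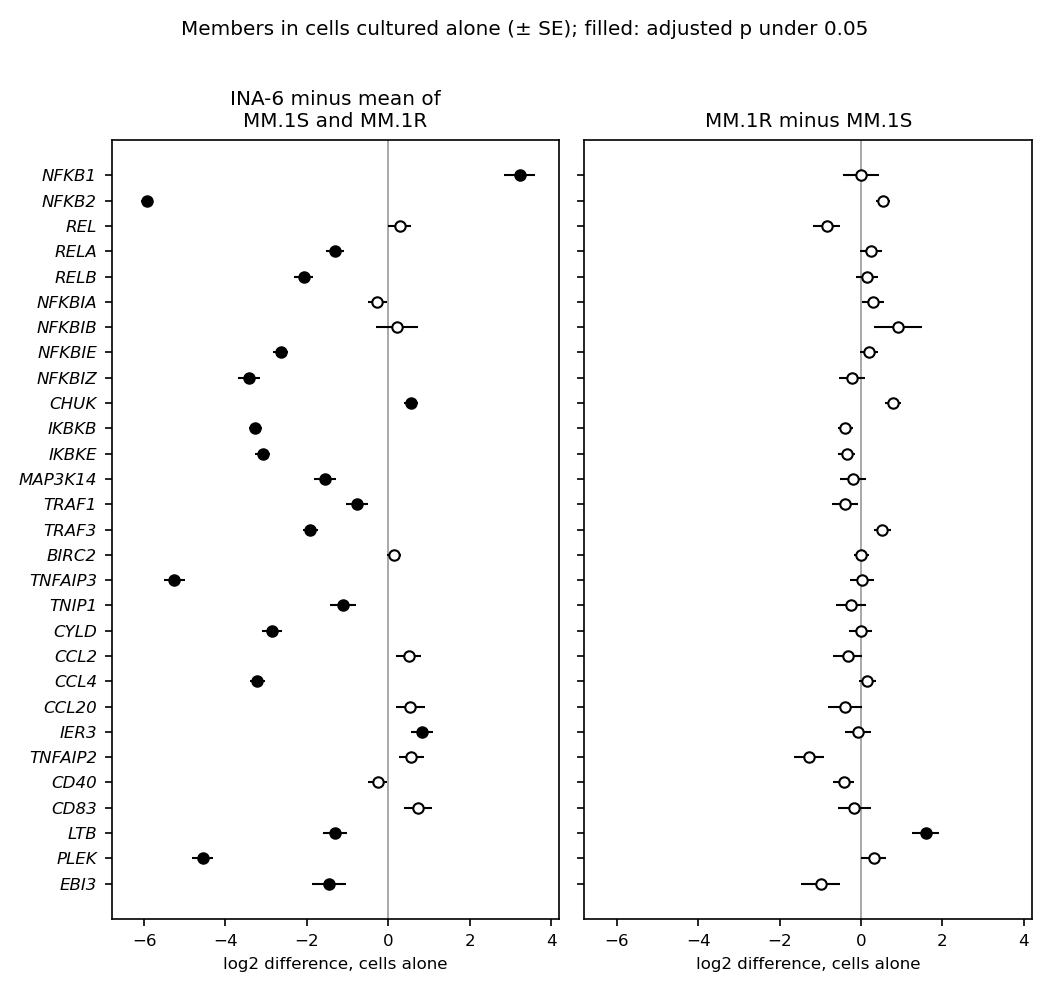
Log2 difference ± SE of the 29 members between lines in cells cultured alone, filled where limma's adjusted p is under 0.05. On the left, INA-6 against the average of MM.1S and MM.1R, 17 filled points lie below 0 and 3 above it, and on the right, MM.1R against MM.1S, LTB is the only filled point.

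Other genes of the pathway were followed as lists. Of 48 receptors, ligands and signalling proteins upstream, 42 were tested and 1 was called in the common fit. That was IRAK2, a kinase of interleukin 1 and Toll-like receptor signalling, which rose by 2.72 ± 0.39 (limma adjusted p = 0.0352). IL1R1, the interleukin 1 receptor, had a larger difference of 2.84 ± 0.52 that did not pass (limma adjusted p = 0.0669). By line 10 upstream genes were called higher and 2 lower in MM.1S, 5 and 1 in MM.1R, and 20 and 2 in INA-6. The shares called higher were 23.8%, 11.9% and 47.6%, against 22.8%, 12% and 38.2% of all genes, so those of MM.1S and MM.1R were near the background. Their common median of 0.39 stood beside 0.27 over all genes.

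Of 30 further NF-kB targets 27 were tested, and 10 (37%, against 1.48% of all genes) were called higher and 0 lower in the common fit, led by CXCL8 (7.12 ± 0.57; limma adjusted p = 0.00864) and IL6 (6.39 ± 0.61; limma adjusted p = 0.0103). CXCL8 encodes a neutrophil chemokine and IL6 the growth factor on which INA-6 depends, and stromal cells make both. Their mean intensities went from 12.8 to 6686 and from 25.0 to 5125 in MM.1R, and the median of these 27 genes was 1.49. Of the 32 stromal markers tested, 14 were also called higher in the common fit and 0 lower, and the part of stromal transcripts in the rises of these targets was not tested.

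A list of 11 genes known as an index of NF-kB activity in myeloma shares TNFAIP3, NFKB2, NFKBIE, RELB, NFKBIA, PLEK and BIRC3 with the members, and 10 were tested. In the common fit 0 passed limma's test and 0 had an unadjusted p under 0.05, and the 2 with the largest common differences, CD74 (1.23) and NFKB2 (1.20), had a limma adjusted p of 0.296 and 0.506. In INA-6 6 were called higher (60%, against 38.2% of all genes) and 0 lower, in MM.1S 2 higher (20%, against 22.8%) and 0 lower, and in MM.1R 0 higher and 1 lower (10%, against 2.13%). The genes shared with the members also entered the member counts in cells alone. In that comparison 9 of the 10 (90%, against 33.5% of all genes) were lower in INA-6 than in MM.1S and MM.1R. Higher in INA-6 were 0 of the 10, against 20.7% of all genes, and the median was -4.37, against -0.14. CD74, the invariant chain of MHC class II, had the largest of these differences (-6.97 ± 0.15) and is named here after its value was seen.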

How the data were processed

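The deposited values are linear intensities of 54675 probe sets, with a floor of 1. MAS5 is named per the submitters' processing notes, while the series design text names dChip with averaging of duplicates. The table held 12 separate arrays, and which of these tools made the values, with what settings, is not given in the sources used here. Left out were 1 probe set with a missing value and 62 controls. The array's annotation gave 41091 probe sets 1 symbol, 1801 several and 11721 none, and for 41043 the symbol was looked up in RefSeq, with 0 changed.

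Probe sets above their own array's median on at least 2 of the 12 arrays were tested (35664), on log2(value + 5), with limma 3.58.1 in R 4.3.3. In the common fit the duplicates were averaged to 6 values with the line as a block, leaving 2 residual degrees of freedom (prior 4.82), and MM.1R descends from MM.1S, so the lines are not all independent. Effects within and differences between lines came from group means fitted to the 12 arrays, with 6 residual degrees of freedom (prior 2.21). Moderated two-sided tests were adjusted by Benjamini-Hochberg over the 35664 probe sets, with a threshold of 0.05. The tested probe set with the highest mean stood for each of 15052 genes, and 15 of the 29 members had 1 tested probe set. All listed members are named. Other lists are given by counts and by their 2 largest changes in the common fit. Members and lists were chosen with earlier results of these data known. Simulated arrays held 50 changed probe sets of each size among 35664. Of known changes of 2 on the log2 scale, 34% were recovered by the common fit and 50% to 56% within lines, and at 4 it was 82% and 88% to 94%. In the measured data 4978 to 17026 probe sets were called within a line, which differs from that setting, so the rates within lines need not hold here. Alternatives were other pseudocounts, scalings, filters, probe-set rules, a replicate block and leaving out arrays or lines. The number of arrays limits the precision.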

Additional observations from a re-analysis of the deposited data

Results flagged for a closer look

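For 16 members the effect of coculture in INA-6 differed from the average effect in MM.1S and MM.1R by limma's interaction test on 12 arrays, which measures only the spread between duplicates. Values are INA-6 minus the others on the log2 scale, with the adjusted p. The positive differences were 4.85 for NFKB2 (1.52e-05), 3.01 for IKBKB (5.03e-05), 2.50 for NFKBIZ (0.00154), 2.15 for TNFAIP3 (0.00251) and 2.06 for CYLD (0.00223). Smaller ones were 1.99 for EBI3 (0.0310), 1.86 for NFKBIE (0.00120), 1.76 for IKBKE (0.00134), 1.64 for TRAF3 (0.00164) and 1.03 for RELA (0.0357). The negative differences were -4.40 for NFKB1 (0.000568), -3.01 for CCL2 (0.00129), -1.50 for CCL20 (0.0482), -1.39 for LTB (0.0284), -1.20 for IER3 (0.0432) and -0.98 for CHUK (0.0147). CCL2 and CCL20 passed the filter on low values only through cocultured arrays, so their differences are a description. The second NFKB2 probe set gave -0.26 (0.777). In MM.1S, MM.1R and INA-6 the coculture effect was 0.90, -0.23 and -0.06 by the second RELA probe set. By the second IKBKE probe set it was 0.95, 0.07 and 0.47, so for both genes INA-6 lay between the other lines. The second TRAF3 probe set gave -0.32, -0.48 and -0.01. By the other tested probe sets of IKBKB, NFKBIZ, TNFAIP3 and CYLD the effect was highest in INA-6. The ACTB 3′ to 5′ ratio moved in opposite directions in INA-6 and the other lines, and its part in these differences was not tested.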

How the results depend on the processing

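The common calls of CCL20 and IER3 were kept in all their alternatives, with an adjusted p of at most 0.0301 and 0.0299. Other member counts moved. Common calls (2) numbered 11 on 12 arrays without averaging, 10 with the replicate block and 10 leaving out INA-6. In these settings the common calls over all tested probe sets went from 402 to 10024, 8938 and 8150. Members higher in each line (5) and 2-fold in every line (5) numbered 3 after quantile normalization, and the 2-fold count also 3 with the mean of probe sets. Differences of effect between MM.1R and MM.1S (0) numbered 2 at a pseudocount of 20 and 6 without all INA-6 arrays, a setting chosen after seeing the data, as was the count in each line. Over all tested probe sets these differences of effect went from 142 calls to 1130 and 3265. Members differing between MM.1R and MM.1S alone (1) numbered 0 after quantile normalization and with the replicate block, 2 with a filter of 6 arrays or the gene table, 3 with the mean of probe sets and 5 without INA-6. Without INA-6 the calls of that comparison over all tested probe sets went from 2478 to 6894. Leaving out 1 array gave ranges of 2 to 2 (common), 7 to 17 (MM.1S), 5 to 15 (MM.1R), 13 to 21 (INA-6), 10 to 19 and 0 to 7 (differences of effect, INA-6 and MM.1R), 17 to 21 and 0 to 5 (cells alone, INA-6 and MM.1R), 4 to 5 (2-fold) and 3 to 7 (each line).

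Some values turned their sign, and except where an adjusted p is given they were not past the test. With a pseudocount of 1 IKBKB was at 0.030 in the common fit. Quantile normalization gave common values of -0.20 for CYLD, -0.23 for MAP3K14 and -0.0037 for PLEK. It gave -0.24 for NFKB2 in MM.1S. In MM.1R it gave -0.028 for REL, -0.13 for NFKBIB, -0.12 for TRAF3, -0.067 for CCL4 and -0.12 for CD83, and in INA-6 -0.057 for TNFAIP2, -0.080 for IKBKE and -0.34 for CD40. Median centring gave 0.0035 for IKBKB (common), 0.030 for CCL4 in MM.1S and -0.023 for NFKBIB in MM.1R. Leaving out INA-6, the common value was 1.36 for NFKB1 (limma adjusted p = 0.00905), -0.41 for NFKB2 and CYLD, -0.22 for TNFAIP3, -0.14 for MAP3K14, 0.00087 for CD83 and -0.40 for EBI3. Leaving out MM.1R gave 0.40 for IKBKB. The mean of the gene's probe sets gave common values of -0.075 for TNFAIP2, 0.11 for IKBKB, 1.29 for CD40 and -0.10 for PLEK. In MM.1S it gave -0.51 for TNFAIP2, 0.48 for CYLD and 1.75 for CD40 (limma adjusted p = 0.000119), in MM.1R -0.20 for TRAF3 and 1.66 for CD40 (limma adjusted p = 0.000252), and in INA-6 -0.39 for TNFAIP2 and -0.42 for PLEK. Leaving out 1 array, the common values spanned -0.33 to 0.12 for NFKB1, -0.084 to 0.28 for MAP3K14, -0.039 to 0.029 for IKBKB and -0.0090 to 0.29 for PLEK. In MM.1S they spanned -0.026 to 0.13 for NFKB2, -0.042 to 0.48 for TNFAIP2, -0.094 to 0.022 for CCL4 and -0.24 to 0.055 for CD83. In MM.1R they spanned -0.13 to 0.45 for REL, -0.56 to 0.58 for NFKBIB, -0.13 to 0.024 for MAP3K14, -0.16 to 0.35 for CD83 and -0.21 to 0.69 for EBI3. In INA-6 they spanned -0.56 to 1.28 for NFKBIB (limma adjusted p = 0.0474 at 1.28), -0.40 to 0.50 for TNFAIP2, -0.56 to 0.32 for CCL2 and -0.36 to 0.53 for PLEK. The cause was not tested.

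Replicate numbers did not pair the arrays. Over 15 pairs of groups the correlation of deviations lay between -0.52 and 0.58 (median -0.14), with 6 over 0.1, and the block left the counts within lines at 10 for MM.1S, 10 for MM.1R and 18 for INA-6. Calls within a line were lost in 22 of 219 alternatives in MM.1S, 21 of 219 in MM.1R and 27 of 399 in INA-6.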
